A study of Mus musculus with 8 samples.

Results

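The genes of cholesterol synthesis and of its control by the sterol regulatory element-binding proteins (SREBPs) were followed in mouse embryonic fibroblasts, connective tissue cells grown out of embryos. The set holds 29 genes, listed in the order of the pathway: 20 enzymes and 9 genes that sense, release, move or store sterol. A gene was measured by the Affymetrix probe sets whose platform annotation names it alone, and where several did, the brightest by its mean over all arrays stood for it. On this rule 27 of the 29 genes were measured, among 18193 genes in all. Acat2 (a thiolase of the first step) and Soat1 (which esterifies cholesterol for storage) had no such probe set and were not analysed here.

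Fibroblasts that lack both copies of the transcription factor gene Cebpg (Cebpg-/-) were compared with wild-type (WT) fibroblasts, 4 samples of each genotype. All came from E13.5 embryos of C57BL/6 background, were grown in medium with 10% serum, and were collected at passage 3, 48 hours after plating. The labels do not describe the Cebpg allele and do not say whether the replicates came from separate embryos, so p-values measure only the spread between these samples. Total RNA of each sample was hybridised to 1 array, and a value is an RMA expression value on the log2 scale, so that a difference of 1 is a factor of 2.

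The targeted gene and the cell type were checked first. Of the 3 probe sets that name Cebpg, 1 read 5.42 to 5.69 on the Cebpg-/- arrays and 6.23 to 6.41 on the WT arrays. The other 2 were not called: the brightest changed by -0.17 and the dimmest by 0.26 (limma, adjusted p = 0.275 and 0.0942). The sources used here do not place these probe sets relative to the deletion. All 10 fibroblast markers lay above the median probe set on all 8 arrays, and 4 of them were lower in Cebpg-/- (summed linear level 16545 to 19138 in Cebpg-/- and 21580 to 24193 in WT). Of the other lists, 4 of 6 endothelial, 4 of 4 measured erythroid, 3 of 5 skeletal muscle, 2 of 5 measured adipocyte and 1 of 6 epithelial markers lay below it on all 8, while 5 of 6 epithelial and 3 of 4 measured neural markers lay above it on all 8. Among these Krt19 was higher in Cebpg-/- by 0.53, and Epcam and Tubb3 were lower (-0.34 and -1.13) (limma, adjusted p = 0.0211, 0.0200 and 0.00351). RNA of leukocytes or macrophages was present in varying amount: the summed linear level of their 19 markers was 1178 to 7055 on the Cebpg-/- arrays and 350.2 to 1725 on the WT arrays, 14 of the 19 lay above the median probe set on every array and none below it on every array. In bulk RNA, fewer cells of a type and less RNA per cell cannot be told apart.

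Cholesterol is built from acetyl-CoA through mevalonate and farnesyl diphosphate, which is joined into squalene, closed into the ring of lanosterol and trimmed in many steps to cholesterol. SREBPs are made as membrane-bound precursors. Scap carries them from the endoplasmic reticulum to the Golgi when sterol is low, where the proteases encoded by Mbtps1 and Mbtps2 release the part that enters the nucleus, and the Insig proteins hold Scap back when sterol is high. SREBP-2, encoded by Srebf2, is best known for driving the sterol enzymes, and Insig1, Stard4 and Srebf2 itself are also among its known targets. NF-Y, which binds CCAAT, is a known partner of SREBPs on such promoters.

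Most of the enzymes were lower in Cebpg-/- fibroblasts, and a smaller share of the control genes was. Of the 27 measured genes 17 fell, 1 rose and 9 were not called (limma with Benjamini-Hochberg adjustment over all genes, threshold 0.05). Across all genes tested 3.99% were called lower and 8.62% higher, so the share of the set that fell, 63%, lay far above the share of all genes. All 4 Cebpg-/- values lay below all 4 WT values in 18 of the 27 genes, where 6.74% of all genes were so separated, and above them in 2, where 12.8% of all genes were. The median change of the set was -0.43 on the log2 scale, beside -0.00092 over all genes. Of the 17 genes 13 fell by at least 0.5 on the log2 scale and 2 by at least 1, where 1.29% and 0.247% of all genes were called with falls of that size. The falls ranged from Hmgcs1, at 46.0% of the WT level, to Dhcr7, at 78.5%. RMA compresses changes of dim probe sets, so these percentages can understate a change.

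**Figure D1:**
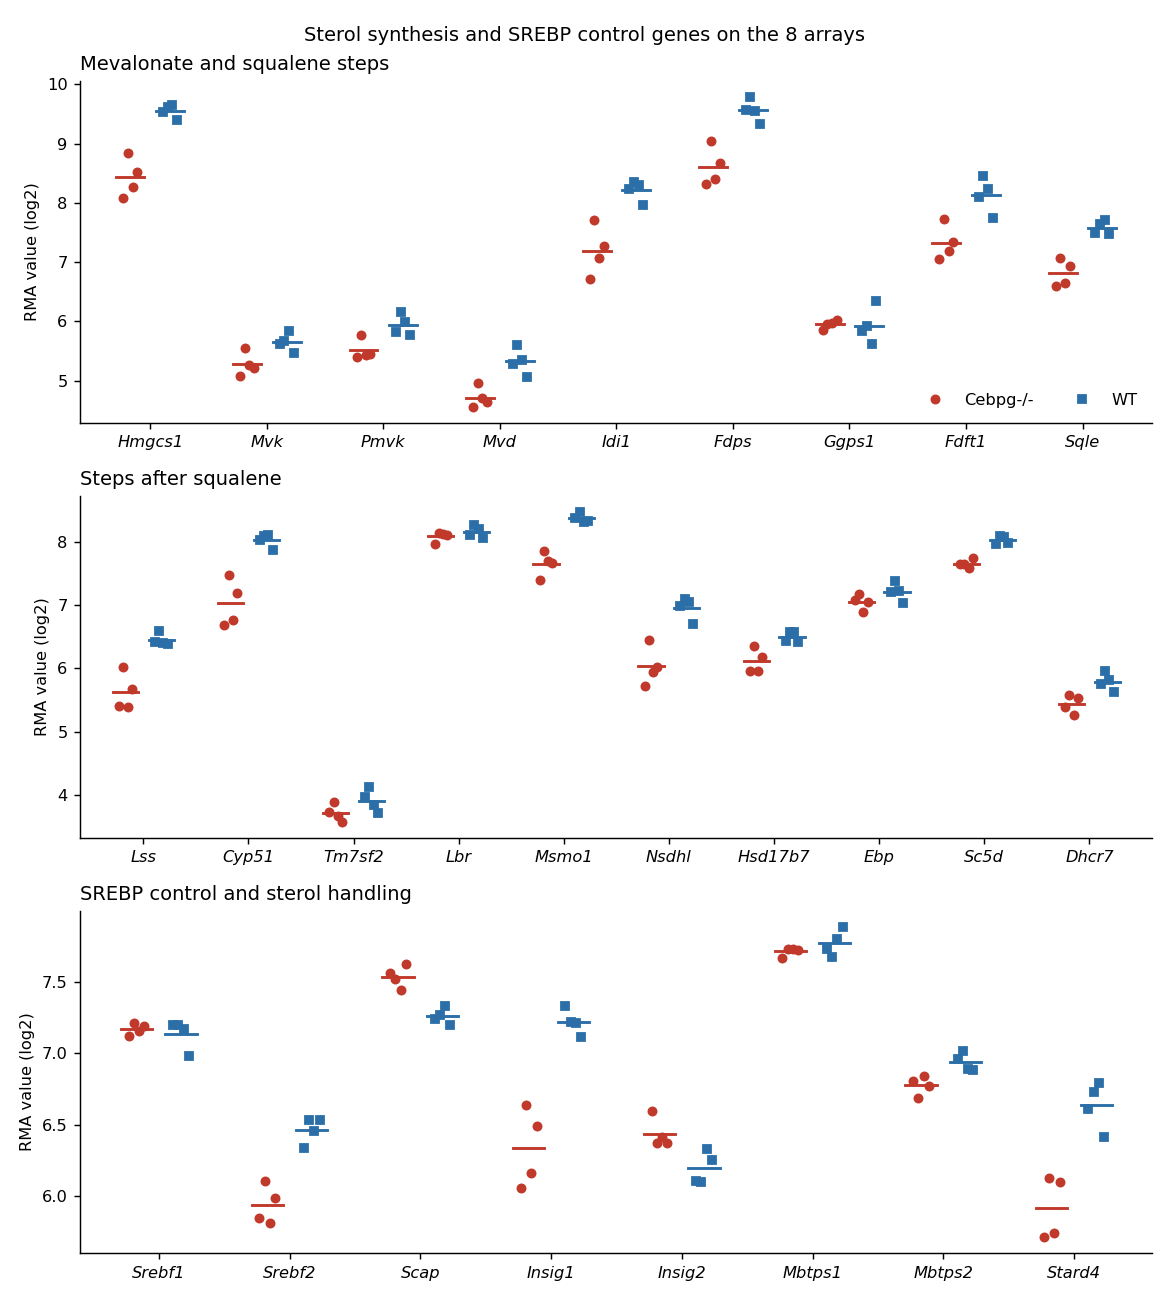
RMA values (log2, vertical axis) of the 27 measured genes, in pathway order along the horizontal axes of 3 panels with scales of their own. Each red circle is a Cebpg-/- array, each blue square a WT array, and the bars are group means of 4 arrays. The groups do not overlap in 14 of the 19 measured enzymes, while Ggps1, Tm7sf2, Lbr, Ebp and Mvk overlap.

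The promoters of the genes that moved together were read from the RefSeq table of build GRCm38.p6, which gives 300 bases per annotated start, 250 before it and 50 after. Of the 27 measured genes 23 had at least 1 such window, 31 windows in all. Fdps, Fdft1, Sqle and Stard4 are among the genes that fell and were not matched. The letters CCAAT were searched on both strands, so that ATTGG counts too. They stood in a window of 13 of the 13 genes that fell and had a window, and of 7 of the 10 others. Among all 14452 genes tested on the arrays that had a window, 42.0% held these letters, and among all genes called lower 48.7%. Over all 32851 windows the share was 37.4%. Some genes have several windows: Dhcr7 held a match in 1 of 3 and Pmvk in 1 of 2.

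The windows of 5 genes that fell and of Scap, the gene that rose, are shown as examples of windows with and without these letters. They read 5′ to 3′ on the strand of the gene, and capitals mark CCAAT, or its reverse ATTGG, and TCACCCCA, which in Hmgcs1 is part of TCACCCCAC.
Hmgcs1 (GRCm38.p6, chr13:119690101-119690400, plus strand): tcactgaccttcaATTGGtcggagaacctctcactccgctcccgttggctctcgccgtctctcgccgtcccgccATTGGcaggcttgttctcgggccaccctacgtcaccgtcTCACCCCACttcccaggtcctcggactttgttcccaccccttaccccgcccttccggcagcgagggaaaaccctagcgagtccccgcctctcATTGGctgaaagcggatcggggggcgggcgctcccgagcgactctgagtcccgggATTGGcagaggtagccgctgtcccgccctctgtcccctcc
Idi1 (GRCm38.p6, chr13:8885356-8885655, plus strand): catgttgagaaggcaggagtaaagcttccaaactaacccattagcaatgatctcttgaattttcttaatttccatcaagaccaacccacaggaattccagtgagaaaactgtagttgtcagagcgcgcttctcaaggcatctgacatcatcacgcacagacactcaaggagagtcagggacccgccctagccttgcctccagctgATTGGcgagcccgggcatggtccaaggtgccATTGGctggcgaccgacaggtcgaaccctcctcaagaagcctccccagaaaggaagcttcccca
Cyp51 (GRCm38.p6, chr5:4104648-4104947, minus strand): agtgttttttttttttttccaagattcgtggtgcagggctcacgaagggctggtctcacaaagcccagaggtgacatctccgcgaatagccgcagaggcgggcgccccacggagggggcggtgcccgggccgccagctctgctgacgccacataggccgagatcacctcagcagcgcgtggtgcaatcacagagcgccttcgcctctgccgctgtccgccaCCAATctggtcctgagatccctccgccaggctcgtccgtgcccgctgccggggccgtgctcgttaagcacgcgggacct
Srebf2 (GRCm38.p6, chr15:82147019-82147318, plus strand): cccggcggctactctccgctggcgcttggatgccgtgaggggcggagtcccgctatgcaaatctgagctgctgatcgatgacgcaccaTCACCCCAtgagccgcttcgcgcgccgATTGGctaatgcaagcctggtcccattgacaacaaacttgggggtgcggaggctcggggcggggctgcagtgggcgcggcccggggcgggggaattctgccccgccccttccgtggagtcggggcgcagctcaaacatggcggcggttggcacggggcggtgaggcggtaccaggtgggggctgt
Insig1 (GRCm38.p6, chr5:28071162-28071461, plus strand): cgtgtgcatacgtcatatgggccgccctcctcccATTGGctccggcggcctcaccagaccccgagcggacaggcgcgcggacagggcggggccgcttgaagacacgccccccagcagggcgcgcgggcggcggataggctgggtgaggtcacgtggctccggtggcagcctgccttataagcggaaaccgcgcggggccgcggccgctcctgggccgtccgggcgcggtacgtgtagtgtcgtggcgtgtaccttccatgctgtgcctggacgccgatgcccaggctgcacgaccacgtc
Scap, first of 2 windows (GRCm38.p6, chr9:110333038-110333337, plus strand): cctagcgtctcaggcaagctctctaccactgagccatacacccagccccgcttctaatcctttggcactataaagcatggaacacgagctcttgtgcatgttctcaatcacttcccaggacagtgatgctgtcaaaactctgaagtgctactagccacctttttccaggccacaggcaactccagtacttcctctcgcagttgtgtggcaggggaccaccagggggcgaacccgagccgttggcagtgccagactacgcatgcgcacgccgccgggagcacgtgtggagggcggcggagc
In the Hmgcs1 window 4 matches of CCAAT begin at -237, -176, -45 and 11, counted from the annotated start with no base 0. Those of Idi1 begin at -45 and -14, that of Cyp51 at -29, that of Srebf2 at -135 and that of Insig1 at -216. Neither Scap window holds one. Windows not shown go other ways: those of Mvk, Ggps1, Tm7sf2, Lbr, Ebp, Srebf1 and Insig2, none of them called, also hold matches. Some windows of Dhcr7 and Pmvk, which fell, hold none.

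In all, 5 further motifs were searched on both strands. TCACNCCAC, the core of the classical sterol regulatory element, and the looser TCANNCCAC stood in the window of Hmgcs1 alone among the 23 genes, at -137, where 1.46% and 4.59% of the tested genes with a window held them. TCACCCCA, a shorter form added after the windows had been read, overlaps TCACNCCAC in Hmgcs1 and also stood in Srebf2, at -162. It stood in 1.83% of the tested genes with a window. As it was chosen after reading the windows, that share is no test of its matches. CACGTG, an E-box that SREBPs can also bind, stood in Hsd17b7, Sc5d, Dhcr7, Insig1 and Scap, against 10.2% of those genes. TGATGNAA, the element of C/EBP and ATF4 dimers, stood in Idi1, at -181, and in Insig2, at -178 and -172 of separate windows, against 3.24% of those genes. These matches are descriptions of the letters in short windows and say nothing of binding.

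Of the 7 measured genes of the mevalonate branch, 5 fell and 2 were not called. Hmgcs1, which makes HMG-CoA, read 8.09, 8.84, 8.27 and 8.52 on Cebpg-/- arrays 1 to 4 and 9.53, 9.62, 9.64 and 9.40 on WT arrays 1 to 4. All Cebpg-/- arrays lay below all WT arrays. The change was -1.12 ± 0.14 (SE; limma, adjusted p = 0.00151), with group means of 8.43 ± 0.33 in Cebpg-/- and 9.55 ± 0.11 in WT (SD, n = 4). Idi1, which turns isopentenyl diphosphate into its reactive isomer, read 6.72, 7.70, 7.07 and 7.27 on the Cebpg-/- arrays and 8.24, 8.36, 8.30 and 7.96 on the WT arrays. It fell by 1.02 ± 0.18 (SE; limma, adjusted p = 0.00678), and the groups did not overlap. Fdps, the farnesyl diphosphate synthase, read 8.32, 9.04, 8.40 and 8.68 on the Cebpg-/- arrays and 9.57, 9.79, 9.55 and 9.33 on the WT arrays. Its change was -0.95 ± 0.15 (SE; limma, adjusted p = 0.00447), and again all Cebpg-/- arrays lay below all WT arrays, with Cebpg-/- array 2 the nearest to them.

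The kinases and the decarboxylase between these steps changed less. Mvd, the mevalonate diphosphate decarboxylase, read 4.56 to 4.97 in Cebpg-/- and 5.07 to 5.60 in WT, a change of -0.61 (limma, adjusted p = 0.0112). Pmvk, the phosphomevalonate kinase, changed by -0.43 (limma, adjusted p = 0.0282), and its groups nearly met, at 5.77 for the highest Cebpg-/- array and 5.78 for the lowest WT array. Its call was lost without WT replicate 1, 2 or 3 or Cebpg-/- replicate 1, 3 or 4 (limma, adjusted p = 0.0508 to 0.0836). Mvk, the mevalonate kinase, read 5.08 to 5.56 in Cebpg-/- and 5.46 to 5.84 in WT, a change of -0.37 that was not called (limma, adjusted p = 0.0537). Mvk passed without Cebpg-/- replicate 2 (0.0127) or WT replicate 4 (0.0332), with quantile-normalised values (0.0388), with dim probe sets left out (0.0475), with the mean of its probe sets (0.0485), with robust variances (0.0387) and with array weights (0.0256).

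Ggps1 stands at a branch that leaves the sterol path, since it makes geranylgeranyl diphosphate for the lipid anchors of proteins. It read 5.85, 5.96, 5.98 and 6.02 on the Cebpg-/- arrays and 5.83, 5.92, 5.62 and 6.34 on the WT arrays. The Cebpg-/- values lay within the WT range, and the change was 0.02 (95% interval -0.27 to 0.31; limma, adjusted p = 0.932). Its 3 other probe sets changed by -0.19, 0.14 and 0.18, and none was called. Other users of mevalonate products, a list of 16 genes that make dolichol and ubiquinone or attach and process prenyl groups, were measured for 15. None fell and 2 rose (13.3%, near the 8.62% of all genes), Pdss2 (a subunit of the enzyme that makes the ubiquinone tail) at 0.41 and Dolk (dolichol kinase) at 0.22 (limma, adjusted p = 0.00700 and 0.0359), with a list median of 0.10. Pdss2 was not called with the mean of its probe sets (0.0732). Dolk was not called without WT replicate 1, 2 or 4 or Cebpg-/- replicate 1, 2 or 3 or with quantile-normalised values (0.0888). Neither was called with the mean of the leukocyte and macrophage markers as a covariate (0.0990 and 0.324) or without the arrays at the ends of that mean (0.0736 and 0.225).

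Both enzymes of the squalene steps fell. Fdft1, squalene synthase, the first enzyme that only sterols need, read 7.06, 7.73, 7.18 and 7.34 on the Cebpg-/- arrays and 8.10, 8.45, 8.23 and 7.74 on the WT arrays. The change was -0.80 ± 0.17 (SE; limma, adjusted p = 0.0147), and the groups met at 7.73 for Cebpg-/- array 2 and 7.74 for WT array 4. Sqle, squalene epoxidase, read 6.59, 7.06, 6.65 and 6.94 on the Cebpg-/- arrays and 7.50, 7.64, 7.71 and 7.48 on the WT arrays. Its change was -0.77 ± 0.11 (SE; limma, adjusted p = 0.00262), and the groups lay clearly apart.

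Of the 10 enzymes after squalene 7 fell, none rose and 3 were not called, and all 10 changes had a negative sign. Cyp51, the lanosterol demethylase, read 6.69, 7.46, 6.76 and 7.19 on the Cebpg-/- arrays and 8.02, 8.09, 8.11 and 7.87 on the WT arrays, a change of -0.997 ± 0.16 (SE; limma, adjusted p = 0.00391). It was the largest fall after squalene, to 50.1% of the WT level. Nsdhl, a dehydrogenase that helps to remove the methyl groups at carbon 4, read 5.72, 6.45, 5.94 and 6.02 on the Cebpg-/- arrays and 6.99, 7.10, 7.04 and 6.70 on the WT arrays, a change of -0.93 ± 0.15 (SE; limma, adjusted p = 0.00404). Lss, which closes the ring of lanosterol, changed by -0.82 (5.39 to 6.02 in Cebpg-/-, 6.39 to 6.59 in WT; limma, adjusted p = 0.00384). Msmo1, the oxidase of the same demethylation, changed by -0.72 (7.39 to 7.85 in Cebpg-/-, 8.31 to 8.47 in WT; limma, adjusted p = 0.00160). In these 4 genes the groups did not overlap.

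The other enzymes after squalene that fell changed by less. Hsd17b7, the reductase of the same demethylation as Nsdhl and Msmo1, changed by -0.38 in its brightest probe set, Sc5d, the desaturase of the B ring, by -0.37, and Dhcr7, which makes cholesterol from its last precursor, by -0.35 (limma, adjusted p = 0.0284, 0.00495 and 0.0324). Sc5d varied little, at 7.58 to 7.74 in Cebpg-/- and 7.96 to 8.09 in WT, and passed in all 8 fits that left out 1 array. With the mean of the leukocyte and macrophage markers as a covariate it was not called (limma, adjusted p = 0.0535). Its dimmer probe sets changed by -0.29 and -0.18 and were not called (limma, adjusted p = 0.0997 and 0.168 across probe sets). Hsd17b7 and Dhcr7 were not called without WT replicate 1, 2 or 3 or Cebpg-/- replicate 1, 3 or 4 (limma, adjusted p = 0.0520 to 0.0829 for Hsd17b7 and 0.0507 to 0.0896 for Dhcr7). Ebp, the sterol isomerase, read 6.89 to 7.17 in Cebpg-/- and 7.03 to 7.38 in WT, a change of -0.16 (95% interval -0.35 to 0.03; limma, adjusted p = 0.257).

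Tm7sf2 and Lbr encode related reductases of the same double bond of the sterol ring, and Lbr is also a receptor of the nuclear envelope that holds chromatin. Neither was called. Tm7sf2 read 3.74, 3.88, 3.68 and 3.57 on the Cebpg-/- arrays and 3.96, 4.12, 3.85 and 3.72 on the WT arrays, a change of -0.20 (95% interval -0.41 to 0.02; limma, adjusted p = 0.216). Lbr read 7.96, 8.14, 8.12 and 8.11 on the Cebpg-/- arrays and 8.11, 8.27, 8.19 and 8.06 on the WT arrays, a change of -0.08 (95% interval -0.23 to 0.07; limma, adjusted p = 0.497). The interval of Lbr leaves out a change as large as that of any enzyme that fell.

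**Figure D2:**
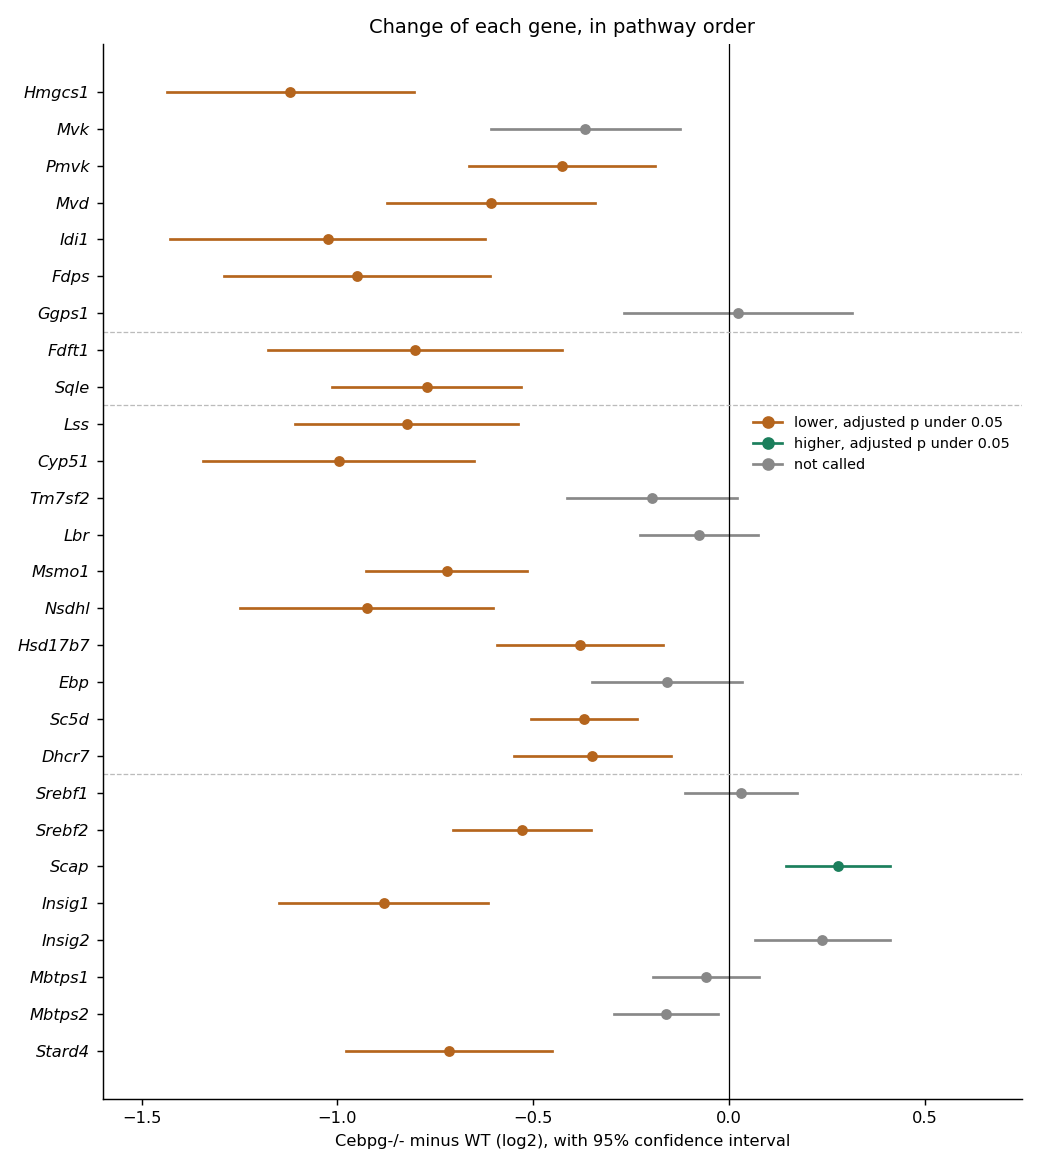
Cebpg-/- minus WT on the log2 scale (horizontal axis) for the 27 measured genes, from the first step of the pathway at the top to sterol handling at the bottom, with 95% confidence intervals from limma. Dashed lines part the mevalonate, squalene, later and control genes, and colour gives the call. The changes run from -1.12 for Hmgcs1 to 0.28 for Scap.

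Among the 8 measured genes of control and sterol handling 3 fell, 1 rose and 4 were not called. The share that fell was 37.5%, against 3.99% of all genes. The share that rose, 12.5%, was near the 8.62% of all genes. Srebf2, which encodes SREBP-2, read 5.85, 6.11, 5.81 and 5.98 on the Cebpg-/- arrays and 6.34, 6.53, 6.46 and 6.53 on the WT arrays, a change of -0.53 ± 0.08 (SE; limma, adjusted p = 0.00343). All Cebpg-/- arrays lay below all WT arrays. The dimmer probe set of Srebf2 changed by -0.40 and was not called (limma, adjusted p = 0.0506 across probe sets). Srebf1, which encodes the SREBP-1 forms and is best known for fatty acid synthesis, read 7.12, 7.21, 7.15 and 7.19 on the Cebpg-/- arrays and 7.20, 7.20, 7.17 and 6.98 on the WT arrays. The groups overlapped, and the change was 0.03 (95% interval -0.11 to 0.17; limma, adjusted p = 0.791). Insig1, which holds Scap in the endoplasmic reticulum, read 6.06, 6.63, 6.17 and 6.49 on the Cebpg-/- arrays and 7.33, 7.22, 7.21 and 7.12 on the WT arrays. It fell by 0.88 ± 0.12 (SE; limma, adjusted p = 0.00222), to 54.3% of the WT level, with no overlap.

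Insig2, the second Insig protein, went the other way in sign. It read 6.60, 6.37, 6.41 and 6.37 on the Cebpg-/- arrays and 6.11, 6.10, 6.33 and 6.26 on the WT arrays, so that all Cebpg-/- arrays lay above all WT arrays. The change of 0.24 (95% interval 0.07 to 0.41) was not called (limma, adjusted p = 0.0707), and it passed after each array's median was subtracted (0.0447). Its 2 other probe sets changed by 0.04 and 0.11 (adjusted p = 0.838 and 0.369 across probe sets, limma fit).

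Scap, the escort of the SREBPs, was the gene that rose. It read 7.56, 7.52, 7.44 and 7.62 on the Cebpg-/- arrays and 7.24, 7.26, 7.33 and 7.20 on the WT arrays, a change of 0.28 ± 0.06 (SE; limma, adjusted p = 0.0159). The groups did not overlap. The call held in all 8 fits that left out 1 array (0.0239 to 0.0499), and was lost with the leukocyte marker mean as a covariate (0.152) and without both arrays at the ends of that mean (0.124). Averaging its 2 probe sets ended the call (0.13, limma adjusted p = 0.108), of which the other lay near the bottom of the scale at 1.80. The proteases showed little change: Mbtps1 (site-1 protease) differed by -0.06 and Mbtps2 (site-2 protease) by -0.16 (limma, adjusted p = 0.565 and 0.107). Mbtps2 read 6.69 to 6.84 in Cebpg-/- and 6.89 to 7.02 in WT, a narrow gap without overlap. Stard4, a carrier of cholesterol between membranes, read 5.71, 6.13, 5.74 and 6.10 on the Cebpg-/- arrays and 6.61, 6.73, 6.79 and 6.41 on the WT arrays. It fell by 0.71 ± 0.12 (SE; limma, adjusted p = 0.00518).

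The 3 pairs of related genes were set against each other by the difference between the 2 genes on each array, which shows unequal change and not which gene is higher. Relative to the WT mean, Insig1 minus Insig2 stood at -1.56, -0.76, -1.27 and -0.90 on the Cebpg-/- arrays, against -0.16 to 0.21 on the WT arrays. Srebf2 minus Srebf1 stood at -0.61, -0.43, -0.67 and -0.53 on the Cebpg-/- arrays, against -0.18 to 0.22 on the WT arrays. In both pairs the groups did not overlap, and the mean differences of -1.12 and -0.56 each had an exact two-sided permutation p = 0.0286, the smallest that 70 splits allow, or 0.0429 after Benjamini-Hochberg adjustment over the 3 pairs. Insig1 and Srebf2 lay apart between the genotypes on their own, so these pair values are not separate from those falls. With the leukocyte marker mean as a covariate Insig1 changed by -0.63, Insig2 by 0.13, Srebf2 by -0.48 and Srebf1 by 0.09. Only Insig1 was called in that fit. Tm7sf2 minus Lbr differed by -0.12 with overlapping groups (exact two-sided permutation p = 0.314, adjusted 0.314).

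**Figure D3:**
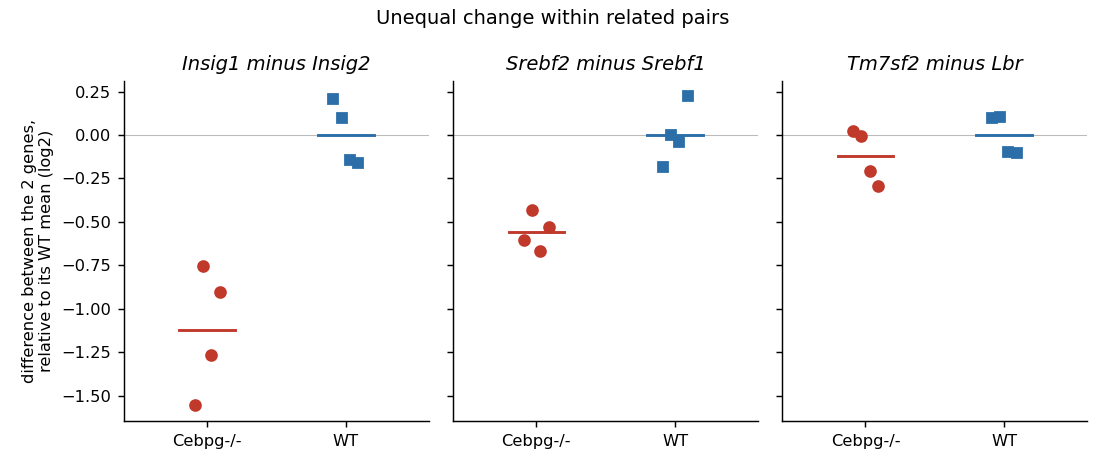
Within-array difference between the 2 genes of each pair, set to 0 at its WT mean (log2, vertical axis), for 4 Cebpg-/- arrays (red circles) and 4 WT arrays (blue squares) with group means as bars. The groups lie apart for Insig1 minus Insig2 and for Srebf2 minus Srebf1 and overlap for Tm7sf2 minus Lbr.

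Other probe sets of the same genes gave a second reading of the same RNA. The 27 genes have 59 probe sets, and 17 genes have more than 1. Of the 32 that were not the brightest, 24 lay above the median probe set, and 17 of these belonged to 10 of the genes that fell. All 17 were lower in Cebpg-/-, and 13 were called (limma, adjusted over all probe sets). In 7 of these 10 genes every such probe set was called. The uncalled ones belonged to Srebf2 (-0.40, mean value 5.50), Sc5d (-0.29 and -0.18, mean values 4.77 and 2.95) and Lss (-0.18, mean value 3.04). Their adjusted p values from limma were 0.0506, 0.0997, 0.168 and 0.381. The other probe sets above the median, of Mvk, Ggps1, Insig2 and Mbtps1, were not called. The 10 genes were picked by falls on the same arrays, so the shared sign of their probe sets is no separate check. The share of all probe sets called lower is not given here. All 3 further probe sets of Hmgcs1 above the median fell, by 0.98 to 1.10, and both of Stard4, by 0.80 and 1.11. Some of the brightest probe sets carry a suffix that Affymetrix uses for probes that can bind related transcripts. Among the other probe sets of those genes, Fdft1 had one at -0.88, Lss one at -0.84, Hsd17b7 a pair at -0.59 and -0.40 and Mvd one at -0.56 (limma, adjusted p = 0.00856, 0.00140, 0.0250, 0.0245 and 0.0466). The remaining ones, all dim, were not called: Lss at -0.18 (mean value 3.04), Fdft1 at 0.03 and -0.04 (2.55 and 2.25) and Hsd17b7 at 0.0011 (1.90). Of 8 probe sets at or below the median 1 was called, that of Hmgcs1 at -0.47.

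**Figure D4:**
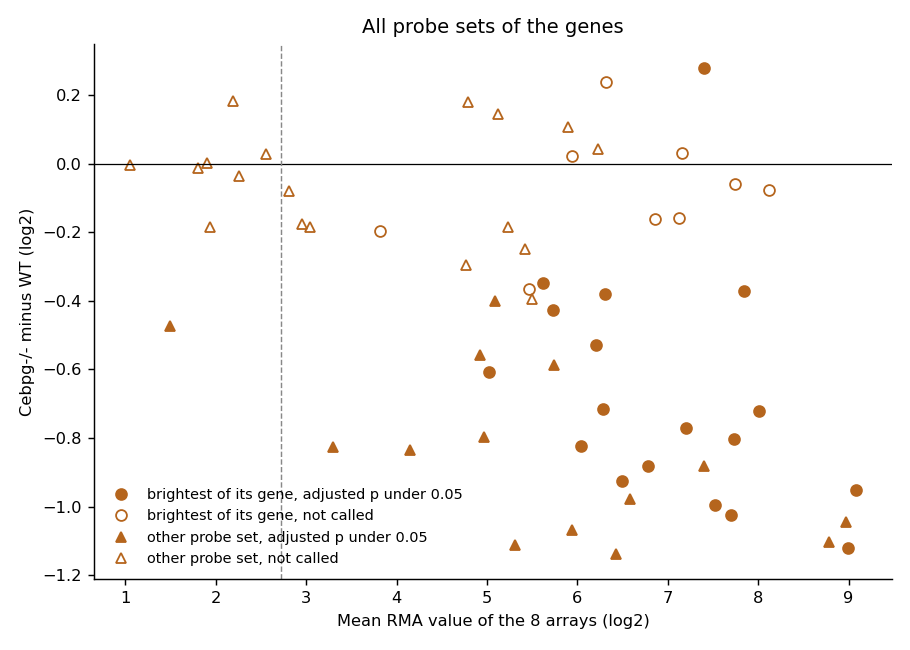
Change (Cebpg-/- minus WT, log2, vertical axis) against the mean RMA value of the 8 arrays (log2, horizontal axis) for all 59 probe sets of the 27 genes. Circles are the brightest probe set of a gene, triangles the others, filled where the adjusted p over all probe sets is under 0.05, and the dashed line is the median probe set value of 2.72. Above that line the filled symbols lie from dim to bright, and 1 of the 8 probe sets below it is filled.

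The enzymes varied together from array to array. The mean of the 19 measured enzymes was 6.35, 6.80, 6.43 and 6.57 on Cebpg-/- arrays 1 to 4 and 7.09, 7.25, 7.15 and 6.98 on WT arrays 1 to 4. Among the Cebpg-/- arrays, array 2 was the highest in 17 of the 19 enzymes and array 1 the lowest in 13. Among the WT arrays, array 4 was the lowest in 16 and array 2 the highest in 13. The same counts were not made over all genes, so this order is not shown to be particular to the enzymes. Cebpg-/- array 2 lay closest to WT, with a median difference of -0.38 from the WT mean over the 19 enzymes, against -0.77, -0.61 and -0.65 for arrays 1, 3 and 4. Over the 19 enzymes the SD between arrays had a median of 0.19 among Cebpg-/- arrays and 0.14 among WT arrays.

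The leukocyte and macrophage markers also varied from array to array. Their mean was 7.33, 4.76, 6.61 and 6.24 on Cebpg-/- arrays 1 to 4 and 3.52, 5.22, 5.14 and 5.31 on WT arrays 1 to 4. Of the 19 markers 1, Cd14, was called higher, and the median change of the 19 was 1.39. Among the Cebpg-/- arrays the order of the marker means was the reverse of that of the enzyme means, while among the WT arrays it was not. Cebpg-/- array 2 had a marker mean within the WT range and an enzyme mean of 6.80, against 6.98 to 7.25 on the WT arrays. This is 1 array, and what lowered its enzyme mean was not tested. With the marker mean as a covariate 4 of the 17 falls were still called, Hmgcs1, Sqle, Msmo1 and Insig1 (limma, adjusted p = 0.0179 to 0.0470), and Scap was not (0.152). All 17 changes stayed negative, at -0.86 to -0.26, with a median of -0.58 against -0.77 without the covariate. The 17 were picked by their falls on these same arrays, so their signs are no separate check. In that fit 4 of the 27 measured genes were called lower, and 0.599% of all genes. Without WT replicate 1 and Cebpg-/- replicate 1, the arrays at the ends of the marker mean, 11 of the 27 measured genes were called lower. All 11 were among the 17. The share of all genes called lower in that smaller fit was 1%, against 3.99% with all arrays.

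**Figure D5:**
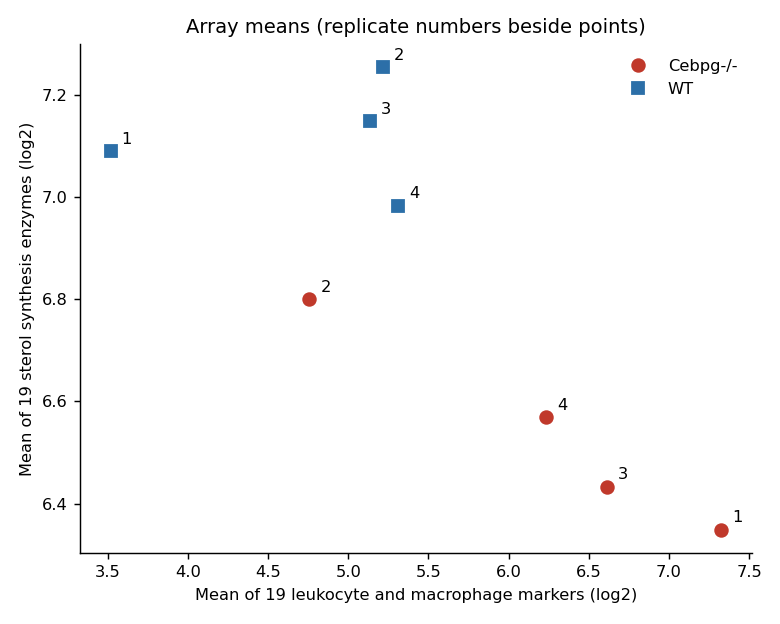
Mean of the 19 measured sterol synthesis enzymes (log2, vertical axis) against the mean of the 19 leukocyte and macrophage markers (log2, horizontal axis) on each array, red circles for Cebpg-/- and blue squares for WT, with replicate numbers. Cebpg-/- array 2 has a marker mean within the WT range and an enzyme mean of 6.80, below the lowest WT mean of 6.98.

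Neighbouring lipid genes were counted for comparison. Of 8 other measured genes tied to sterol supply and its transcription, 1 rose (12.5%, against 8.62% of all genes), Npc2 (which passes cholesterol out of lysosomes) at 0.21 (limma, adjusted p = 0.0431). That call was lost without any single array other than WT replicate 3 (limma, adjusted p = 0.0545 to 0.119), with quantile-normalised values (0.0622), with the mean of its probe sets (0.0777), with the covariate (0.310) and without both end arrays (0.237). Of 9 measured genes that degrade sterol-regulated proteins of the endoplasmic reticulum, 2 rose (22.2%) and none fell: Erlin1, part of a complex that binds cholesterol, at 0.37, and Rnf145, a ubiquitin ligase, at 0.28 (limma, adjusted p = 0.00524 and 0.0159). Erlin1 was not called with the mean of its probe sets (0.241), and Rnf145 was not called without WT replicate 1 (0.0501) or Cebpg-/- replicate 1 (0.0511). Neither was called with the marker mean as a covariate (0.0893 and 0.226) or without both end arrays (0.0609 and 0.129).

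Of 16 fatty acid genes of the kind driven by SREBP-1, 6 fell and 2 rose (37.5% and 12.5%, against 3.99% and 8.62% of all genes), with a median change of -0.22. With the marker mean as a covariate 1 fell, Scd2 (-0.80, limma adjusted p = 0.0103), and none rose, and without both end arrays 2 fell and none rose. The clearest falls were in the desaturases Scd2 (9.33, 9.84, 9.47 and 9.69 on the Cebpg-/- arrays, against 10.50, 10.59, 10.56 and 10.51 on the WT arrays; -0.96, limma adjusted p = 0.000628) and Fads2 (-0.65, 0.00412; with the covariate -0.51, 0.0712). Lpin1, a phosphatidate phosphatase, and Me1, the cytosolic malic enzyme, rose by 0.32 and 0.33 (limma, adjusted p = 0.0253 and 0.0275). Both calls were also lost without WT replicate 1 or 2 or Cebpg-/- replicate 1, that of Me1 without Cebpg-/- replicate 4, and that of Lpin1 with quantile-normalised values (0.0796). Of 11 measured genes of the oxysterol receptors LXR and of oxysterol handling, 3 rose (27.3%) and none fell. The number that rose was 1 with the marker mean as a covariate, with robust variances, without WT replicate 1 and without both end arrays. Abca1, which exports cholesterol, read 6.39, 5.39, 5.92 and 5.96 on the Cebpg-/- arrays and 4.22, 4.96, 4.87 and 4.51 on the WT arrays, a rise of 1.27 (limma, adjusted p = 0.00525) that passed with the marker mean as a covariate (0.77, 0.0299). Apoe, a lipoprotein component that macrophages make in quantity, rose by 2.52 (limma, adjusted p = 0.0159), with 6.17 to 8.82 in Cebpg-/- and 4.15 to 6.26 in WT. It was not called with that covariate (1.21, 0.103), when WT replicate 1 was left out (0.0504), or when robust variances with an intensity trend were used (0.0625).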

How the data were processed

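RNA of 4 Cebpg-/- and 4 WT fibroblast cultures was measured on 1 Affymetrix array each. The values deposited by the authors are log2 expression from RMA, as named in the submitters' processing notes. No version or setting of RMA is given in those sources. Values ran from 0.53 to 13.10 with a median of 2.72, and the number of arrays limits the precision. Of 45101 probe sets, 64 controls were left out. Of the other 45037, 34945 named 1 gene, 932 several and 9160 none; symbols were updated through RefSeq for 34741 and kept for 204. The brightest probe set stood for each of 18193 genes. Cebpg-/- was compared with WT by lmFit and eBayes in limma 3.58.1 (R 4.3.3), with Benjamini-Hochberg adjustment over all genes and a threshold of 0.05, after the fit had been tested on simulated data. Pairs of genes were compared by an exact permutation test. Tables and figures were made in Python 3.11.15 with pandas 2.3.3 and matplotlib 3.10.9. All measured members were named, and from each other list the called genes with the 2 lowest p in each direction. The members and lists were chosen with earlier results of these data known. Alternatives changed the scaling, the probe set rule, the variance model, the covariates, the threshold and the arrays used.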

Additional observations from a re-analysis of the deposited data

Results flagged for a closer look

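In 5 of 54 sets of 4 arrays, 1 array lay far from the others of its genotype, where chance gives about 1 in 20. Pmvk was highest on Cebpg-/- array 2, at 5.77, with the next at 5.45. Lss was highest on WT array 2, at 6.59, with the next at 6.41. Lbr was lowest on Cebpg-/- array 1, at 7.96, with the next at 8.11. Srebf1 was lowest on WT array 4, at 6.98, with the next at 7.17. Mbtps1 was lowest on Cebpg-/- array 1, at 7.67, with the next at 7.72.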

How the results depend on the processing

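Of the 27 measured genes 17 fell and 1 rose, and the number that fell was 16 to 18 under other scalings, probe set rules and variance models and with the replicate number as a block. It was 4 with the leukocyte marker mean as a covariate and 11 without both arrays at the ends of that mean. In those fits 0.599% and 1% of all genes were called lower, against 3.99% in the main fit. Leaving out 1 array at a time gave 14 to 18 that fell and 1 that rose each time, with Pmvk, Hsd17b7 and Dhcr7 as the calls lost. The number that rose was 2 with array medians subtracted or at a threshold of 0.1, and 0 when the probe sets of a gene were averaged, with the replicate block, with the covariate and without both end arrays. Same-numbered Cebpg-/- and WT arrays deviated together with r = -0.27, 0.13, -0.01 and 0.03, and differently numbered ones with r from -0.25 to 0.33. These values cannot show whether same-numbered arrays were prepared together. The replicate block lost the calls of Dhcr7 (0.0515) and Scap (0.0629), as adjusted p from limma. Of the other named genes it lost those of Rnf145 (0.0523), Apoe (0.0572), Me1 (0.0635), Lpin1 (0.0685), Dolk (0.0861) and Npc2 (0.110). For Insig1 minus Insig2 and Srebf2 minus Srebf1 a block on 4 pairs cannot move the mean differences of -1.12 and -0.56, and its smallest possible exact p, 0.125, is above the threshold, so it bears on neither. Leaving out 1 array gave -1.24 to -0.97 for Insig1 minus Insig2, -0.62 to -0.49 for Srebf2 minus Srebf1 and -0.17 to -0.06 for Tm7sf2 minus Lbr. The share of higher among all genes called was 68.4%, against 56.7% after quantile normalisation and 78.9% with array medians subtracted. Why these counts moved was not tested.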
